A study of Mus musculus with 8 samples.

Results

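The collagen genes were taken as every probe whose gene name in the scanner files has the form Col, a number, a and a number, control spots left out. The rule found 69 probes of 44 genes, out of 39429 probes and 30028 names on the array, and all 44 names are current RefSeq symbols. Col16a1 was singled out with the set because earlier results of these data had shown its small p-value. RNA came from samples labelled beta pancreatic cells of C57BL/6 mice, 4 from animals on a control (chow) diet and 4 from animals on a high-fat diet, each hybridised to its own 1-colour Agilent array (Cy3). The labels give no transgene or further treatment. They use the term biological replicate without saying whether a sample was 1 animal or a pool, so the p-values measure the spread between these samples. How the cells were isolated, how long the diets lasted and the age of the mice are not given in the sources used here.

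Collagens are trimeric proteins of the extracellular matrix in which 3 chains wind around each other. Every chain must place glycine at each turn of the helix, so its messenger RNA repeats a glycine codon after every pair of other codons. Fibrillar collagens (types I, II, III, V, XI, XXIV and XXVII) form the ropes of interstitial tissue and are made mainly by fibroblasts and, in the pancreas, by stellate cells. Type IV collagen forms the sheet of the basement membrane, and types XV and XVIII are proteoglycan collagens of the same zone. In the islet, endothelial cells are known to lay down much of the basement membrane that beta cells touch. The remaining collagens include the beaded filaments of type VI, the FACITs that decorate fibrils, the anchoring fibrils of type VII, short chain networks and transmembrane collagens.

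The repeat can be read in the probes themselves. A search for GGN codons at a step of 9 bases, with a run of at least 4, found 4 of 69 collagen probes (5.8%) and 35 of 39360 other probes (0.0889%). The run length was chosen after a stricter rule, codons across the whole probe and at least 6 of them, had found 2 collagen probes and 5 others. The 4 collagen probes of 60 bases are shown because 3 of them stand for their gene below. Capitals mark the glycine codons of the run, read as the scanner files print the probe.
Col15a1: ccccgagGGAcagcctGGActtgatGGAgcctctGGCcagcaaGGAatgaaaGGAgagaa
Col25a1: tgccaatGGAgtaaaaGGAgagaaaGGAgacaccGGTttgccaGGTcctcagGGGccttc
Col16a1: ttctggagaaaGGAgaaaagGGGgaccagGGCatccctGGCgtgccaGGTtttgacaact
Col14a1: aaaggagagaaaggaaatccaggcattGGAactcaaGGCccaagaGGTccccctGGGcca
On mm9, the build named in the file headers, these lie at chr4:47283786-47283845, chr3:130270497-130270556, chr4:129756457-129756516 and chr15:55347733-55347792 in that order. The run had 6 codons in Col15a1 and Col25a1, 5 in Col16a1 and 4 in Col14a1. The repeat probe of Col14a1 was well above background on 8 arrays, that of Col25a1 on 6, that of Col15a1 on 4 and that of Col16a1 on 0. Other probes carry the Col16a1 result below.

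The arrays held 43020 non-control spots each, of which 63.6% to 68.6% were well above background, with 0 saturated spots. There were 2 slides, which were scanned in separate sessions, with replicates 1 and 2 of each diet on slide 1 and replicates 3 and 4 on slide 2. Control arrays were at positions 1 and 3 and high-fat arrays at positions 2 and 4 of both slides, so position and diet cannot be told apart. A level below is the log2 signal of a probe minus the array's 75th percentile of log2 signal, so it depends on the probe and ranks no gene against another. A difference is the high-fat mean minus the control mean of these levels, with its SE from limma and 4 arrays per diet. All 10 beta cell markers fixed in a list were well above background on all 8 arrays, and so were all 10 acinar and all 9 other endocrine markers, so RNA of these cell types was measured beside that of beta cells.

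Of the 69 collagen probes, 35 passed the detection rule, a signal well above background on 4 or more of the 8 arrays. They represent 29 genes, which were tested. By class these were 6 of 11 fibrillar genes, 7 of 8 basement membrane genes and 16 of 25 others. All but 5 of the 29 were well above background on every array. The 5 were Col15a1 (2 control and 2 high-fat arrays), Col9a1 (2 and 3), Col19a1 (3 and 4), Col25a1 (2 and 4) and Col8a2 (3 and 4). Another 4 genes were well above background on 1 to 3 arrays and were not tested: the fibrillar Col5a1 (1 control and 2 high-fat arrays) and Col5a2 (1 and 1), and the type VI chains Col6a4 (2 and 0) and Col6a5 (1 and 0). The last 11 were not well above background on any array. They were the cartilage collagens Col2a1, Col9a3, Col10a1 and Col11a1, the fibrillar Col24a1, the type IV chain Col4a3, the hemidesmosome collagen Col17a1, and Col8a1, Col12a1, Col22a1 and Col28a1.

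No collagen gene passed the test for a diet difference. At an adjusted p under 0.05 limma called 0 of 29, and 0% of the 19993 genes tested, so the whole array gave no call either. At an unadjusted p under 0.05 there were 3 collagens, Col16a1 higher and Col26a1 and Col6a3 lower after the high-fat diet, against 5.86% of all genes (2.59% higher and 3.27% lower). For 2 collagens, Col16a1 above and Col26a1 below, the arrays of one diet did not overlap those of the other, against 3.45% of all genes (1.78% above and 1.67% below). Without high-fat replicate 1 both counts were 5, with 11.8% of all genes not overlapping, and without control replicate 1 the count at that p was 5. The share of all genes at that p without either array is not given here, so the 5 are not read against it. The 3 genes are in the class of other collagens, and no fibrillar or basement membrane gene was among them. In bulk samples, fewer cells of a type and less RNA per cell cannot be told apart, and this holds for every value below.

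**Figure D1:**
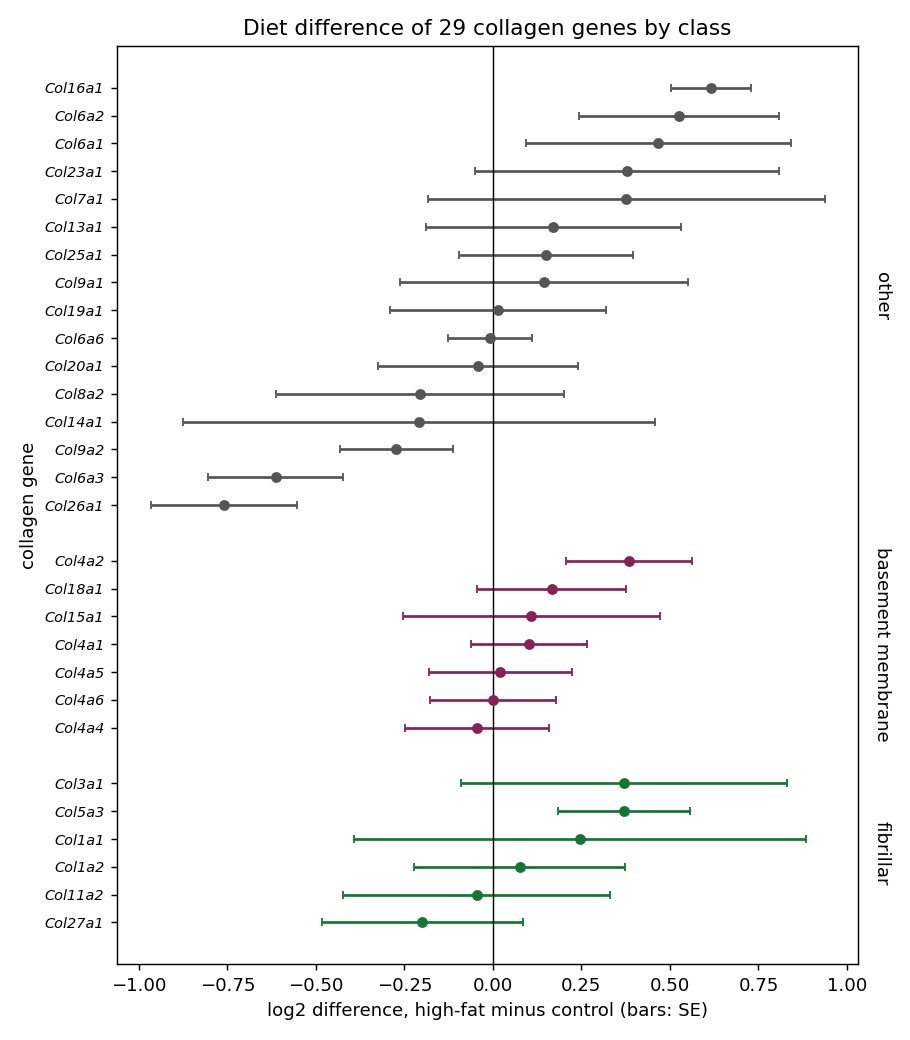
Log2 difference, high-fat minus control, of the 29 collagen genes tested, grouped by class (y axis: gene, x axis: log2 difference); points are limma estimates and bars are SE, with 4 arrays per diet. Col16a1 at 0.62 and Col26a1 at -0.76 are the extremes, and most bars cross 0.

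Differences lay on both sides of 0 in each class. Of the 29 genes, 19 stood above 0 and 10 below, with a median of 0.10, where 50.2% of all genes stood above 0 with a median of 0.00093. The median was 0.16 for the fibrillar genes (4 above, 2 below), 0.10 for the basement membrane genes (6 and 1) and 0.079 for the others (9 and 7). These medians did not hold their sign. Without control replicate 2 they were -0.046, -0.057 and -0.063, and -0.057 over all 29. The fibrillar median was -0.10 without high-fat replicate 4, and that of the others was -0.071 without high-fat replicate 1.

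The slides also disagreed. The median of the other collagens was 0.30 on slide 1 and -0.13 on slide 2, that of the basement membrane genes 0.17 and -0.0013, and that of the fibrillar genes 0.0071 and 0.25. The difference had the same sign on both slides for 12 of 29 collagens (41.4%), against 52.4% of all genes. Among basement membrane genes this was so for 1 of 7, Col4a2.

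Col16a1, a FACIT of connective tissue, had the smallest p of the set. The control arrays measured -0.30, -0.35, -0.70 and -0.40 in replicates 1 to 4, and the high-fat arrays 0.17, 0.19, 0.14 and 0.20 (chr4:129776333-129776392, mm9). Every high-fat array was above every control array, and the high-fat arrays lay within a narrow band. The difference was 0.62 ± 0.11 (SE, n = 4 per diet), 1.53-fold, with an unadjusted limma p of 0.000543 and an adjusted p of 0.350. It was 0.50 on slide 1 and 0.73 on slide 2. Because the gene was singled out for this contrast, these values describe it and support nothing further.

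A second Col16a1 probe nearby (chr4:129776460-129776519) measured -2.85, -3.10, -2.70 and -2.90 in control and -2.43, -2.45, -2.52 and -2.33 in high-fat replicates 1 to 4. Its diets did not overlap either, with a difference of 0.45 ± 0.12. It reads the same RNA samples, so it repeats the measurement and adds no sample. Of the other Col16a1 probes, the one with the glycine repeat was well above background on 0 arrays and the one at chr4:129770686-129770745 on 1 high-fat array. In the authors' deposited value table the Col16a1 difference was 0.34, in the same direction, with an adjusted p of 0.503 in limma.

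Col26a1 (also known as Emid2), a short secreted collagen, was the lowest of the set in difference. Control replicates 1 to 4 measured -2.66, -2.83, -2.35 and -3.18, and high-fat replicates -3.19, -3.85, -3.43 and -3.58 (chr5:137217629-137217688). The diets did not overlap, but control replicate 4 and high-fat replicate 1 all but met. The difference was -0.76 ± 0.21, with an unadjusted limma p of 0.00595 and an adjusted p of 0.612, and it was -0.77 and -0.75 on the slides. A second probe at chr5:137217634-137217693, which shares most of its bases with the first, gave -1.12 ± 0.31. The difference turned to 0.30 with normexp background correction and was -0.28 with normexp when spots of high local background were left out. In the deposited value table it was -0.11.

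**Figure D2:**
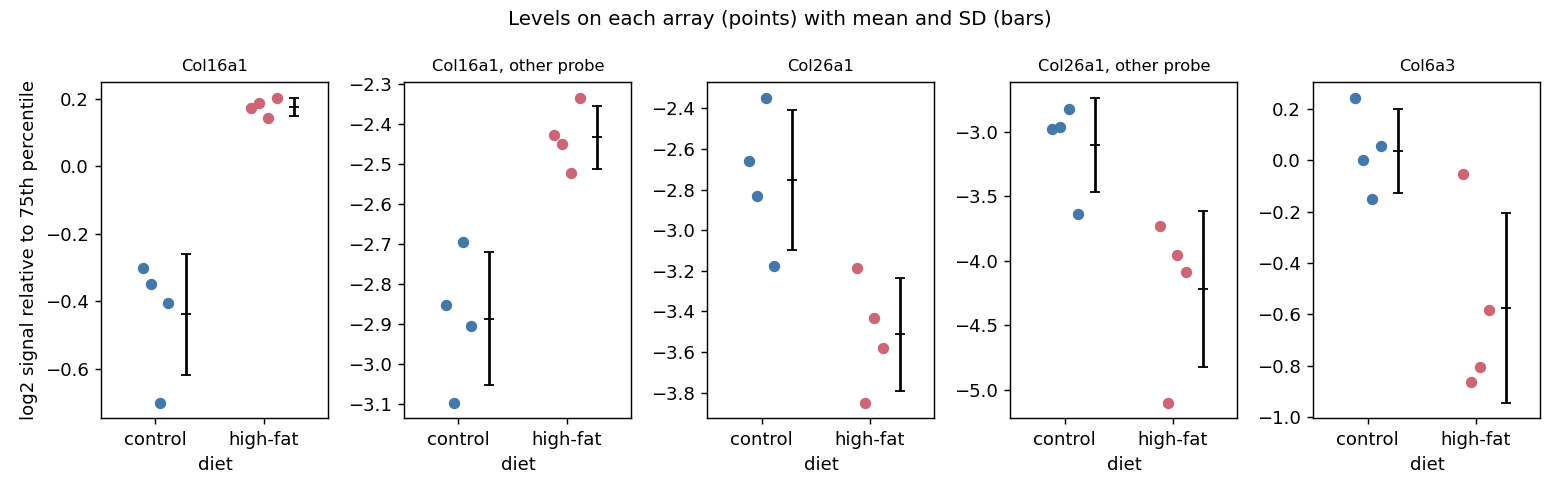
Log2 level of the probes for Col16a1, Col26a1 and Col6a3 on each array, by diet (y axis: log2 signal relative to the array's 75th percentile, with its own range in each panel); points are arrays and bars are mean and SD, n = 4 per diet. Both Col16a1 probes are higher on all 4 high-fat arrays, both Col26a1 probes are lower, and high-fat replicate 1 overlaps the controls for Col6a3.

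Type VI collagen builds beaded filaments around cells from 3 different chains, encoded by Col6a1, Col6a2 and Col6a3. The differences of its chains stood on opposite sides of 0, with Col6a3 below and Col6a1 and Col6a2 above. Col6a3 measured 0.24, -0.0001, -0.15 and 0.06 in control replicates 1 to 4 and -0.05, -0.86, -0.81 and -0.58 in high-fat replicates (chr1:92663663-92663722). High-fat replicates 2 to 4 lay below all controls, and replicate 1 lay among them. The difference was -0.61 ± 0.19, with an unadjusted limma p of 0.0120 and an adjusted p of 0.694, and it was -0.58 and -0.65 on the slides.

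Col6a1 measured -1.58, -2.60, -2.14 and -1.62 in control and -2.16, -1.37, -1.95 and -0.59 in high-fat replicates 1 to 4 (chr10:76171538-76171597). The diets overlapped widely, and high-fat replicate 4 was the highest array. The difference was 0.47 ± 0.37, and 0.16 without high-fat replicate 4. Col6a2, given here after its values had been seen, measured -2.94, -3.84, -2.86 and -2.74 in control and -2.63, -2.66, -2.95 and -2.03 in high-fat replicates (chr10:76058931-76058990). Its difference was 0.53 ± 0.28, with control replicate 2 the lowest array and high-fat replicate 4 the highest, and 0.28 without control replicate 2. Col6a6, a chain that can take the place of Col6a3, stood at -0.0079 ± 0.12 on 1 probe and at -0.46 ± 0.32 on the other.

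Chains of the same trimer can be compared within each array, which removes the array's scaling. A set of 10 such pairs was taken from known trimers after the values of the single genes had been seen, and each was tested by a two-sided exact permutation of the diet labels. The smallest p the design allows is 0.0286, so a single pair cannot pass a threshold of 0.05 after Benjamini-Hochberg adjustment over 10 pairs. Col6a2 minus Col6a3 ran from -3.84 to -2.71 in control and from -2.58 to -1.45 in high-fat arrays. The diets did not overlap, with a difference of 1.14 (exact permutation p = 0.0286, adjusted 0.143), and 1.32 and 0.96 on the slides. In the deposited value table this difference was 0.45. Col6a1 minus Col6a3 differed by 1.08 between the diets, with overlap (exact permutation p = 0.114, adjusted 0.357), and by 0.50 in the deposited table. Neither difference passed after adjustment, and such a ratio does not show which chain differed.

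**Figure D3:**
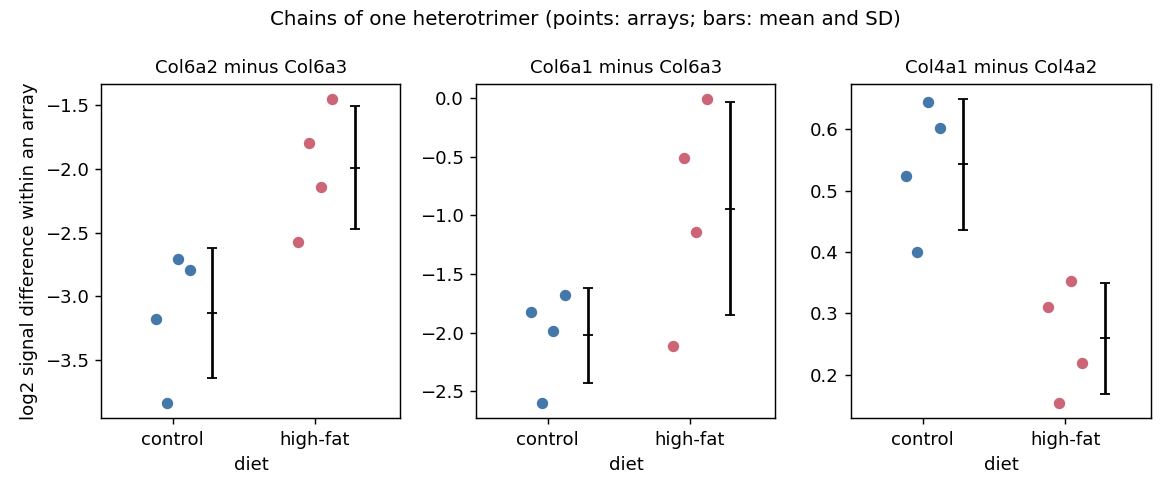
Within-array difference between probes for chains of 1 trimer, by diet (y axis: log2 signal of one chain minus that of the other); points are arrays and bars are mean and SD, n = 4 per diet. Diets do not overlap for Col6a2 minus Col6a3 and for Col4a1 minus Col4a2, and they overlap for Col6a1 minus Col6a3.

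Col1a1, Col1a2 and Col3a1 varied more between arrays of one diet than between the diets. Col1a1, the major chain of type I collagen, measured -1.86, -3.34, -2.17 and -1.77 in control and -2.85, -1.76, -3.21 and -0.34 in high-fat replicates 1 to 4 (chr11:94813115-94813174). The range was wide in both diets, and high-fat replicate 4 stood above all other arrays. The difference was 0.25 ± 0.64, and -0.32 without high-fat replicate 4.

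Col1a2, the other chain of type I, measured 0.72, -0.03, 0.25 and 0.77 in control and 0.15, 0.45, 0.12 and 1.30 in high-fat replicates (chr6:4490619-4490678). High-fat replicate 4 was again the highest array and control replicate 2 the lowest. The difference was 0.077 ± 0.30, and -0.19 without high-fat replicate 4. Col3a1, which copolymerises with type I in distensible tissue, measured -0.76, -2.06, -1.31 and -1.26 in control and -1.77, -0.72, -1.62 and 0.21 in high-fat replicates (chr1:45405589-45405648). The same arrays were at the ends, and the difference of 0.37 ± 0.46 was -0.024 without high-fat replicate 4.

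The chains of type I were correlated across arrays. Over the 8 arrays Pearson's r between Col1a1 and Col1a2 was 0.953 and Spearman's rho 0.929. Their two-sided exact permutation p-values were 1.98e-04 and 0.00223, or 0.00198 and 0.0223 adjusted over 10 pairs. Without the 2 arrays farthest from the median of Col1a1, r was 0.840. For Col6a1 and Col6a2 r was 0.837 and rho 0.524 (exact permutation p adjusted over 10 pairs 0.0713 and 0.492), and r was 0.094 without the 2 farthest arrays, so that relation rests on those arrays. With 4 arrays a slide, no relation was computed within slides.

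High-fat replicate 4 was the highest array for 8 of 29 collagens: Col1a1, Col1a2, Col3a1, Col5a3, Col6a1, Col6a2, Col16a1 and Col25a1. This is 27.6%, where that array was the highest for 11.3% of the 19866 genes with a value on every array. Control replicates 1 and 3 were the highest for 6 collagens each (20.7%, against 14.4% and 25.1% of all genes). Control replicate 2 was the lowest array for 11 of 29 (37.9%, against 13.5% of all genes), among them Col1a1, Col1a2, Col3a1, Col5a3, Col6a1 and Col6a2. Control replicate 3 and high-fat replicate 2 were the lowest for 6 each (20.7%, against 13.4% and 13.9% of all genes). Measured against each gene's control mean, the median of the fibrillar genes was 0.77 on high-fat replicate 4 and -0.47 on control replicate 2.

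Markers of stellate cells, fibroblasts and pericytes were summed over 12 of 13 listed genes as linear signal relative to the 75th percentile. The sum was 13.8 on high-fat replicate 4, the highest of the high-fat arrays, and 12.5 on control replicate 2, within a control range of 10.1 to 16.9 and a high-fat range of 8.35 to 13.8. Pdgfra, a defining fibroblast marker, was not well above background on at least 4 arrays. The sum of all 12 endothelial markers was 49.5 on high-fat replicate 4, the highest of all arrays, followed by 48.7 on control replicate 3. It was 38.5 on control replicate 2, and lower on control replicate 1 (36.2) and high-fat replicate 1 (38.4). Kdr, the brightest probe in this sum, followed the slide, with levels of 3.07 to 3.39 on slide 1 and 3.94 to 4.23 on slide 2. The part of these cells in the collagen values was not tested.

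**Figure D4:**
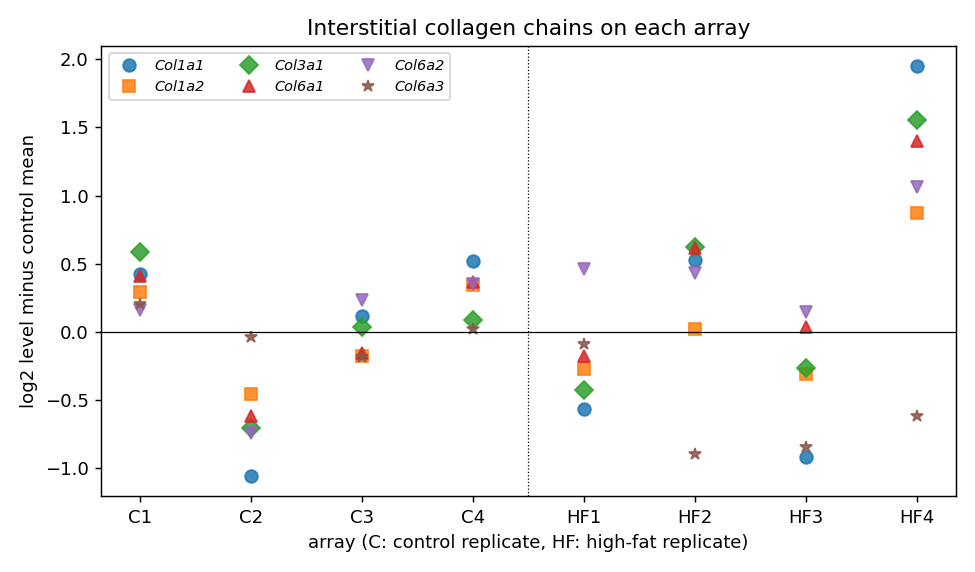
Log2 level of Col1a1, Col1a2, Col3a1, Col6a1, Col6a2 and Col6a3 on each array minus the gene's mean over the 4 control arrays (y axis), for control (C1 to C4) and high-fat (HF1 to HF4) replicates on the x axis. On HF4 every chain but Col6a3 is at its highest, and on C2 every chain but Col6a3 is at its lowest.

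Among the remaining fibrillar genes, Col5a3, a chain of type V collagen that regulates fibril diameter, stood at 0.37 ± 0.19, with 0.058 on slide 1 and 0.68 on slide 2. Col27a1 stood at -0.20 ± 0.28 and Col11a2 at -0.046 ± 0.38. The mean control levels of the class ran from -4.09 for the Col11a2 probe to 0.43 for the Col1a2 probe. None of these differences passed the test.

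In the basement membrane class Col4a1, a chain of the ubiquitous type IV network, had the smallest SE. Its probe is printed 10 times on each array, and the SD between these spots within an array was 0.040 to 0.098. The array means of Col4a1 were 1.04, 0.78, 0.42 and 0.81 in control and 0.68, 0.72, 1.16 and 0.89 in high-fat replicates 1 to 4 (chr8:11199009-11199068). The arrays of 1 diet spanned several times that spot error, and the diets overlapped, with control replicate 3 lowest and high-fat replicate 3 highest. The difference was 0.10 ± 0.16, with -0.21 on slide 1 and 0.41 on slide 2, and it was -0.013 without control replicate 3.

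**Figure D5:**
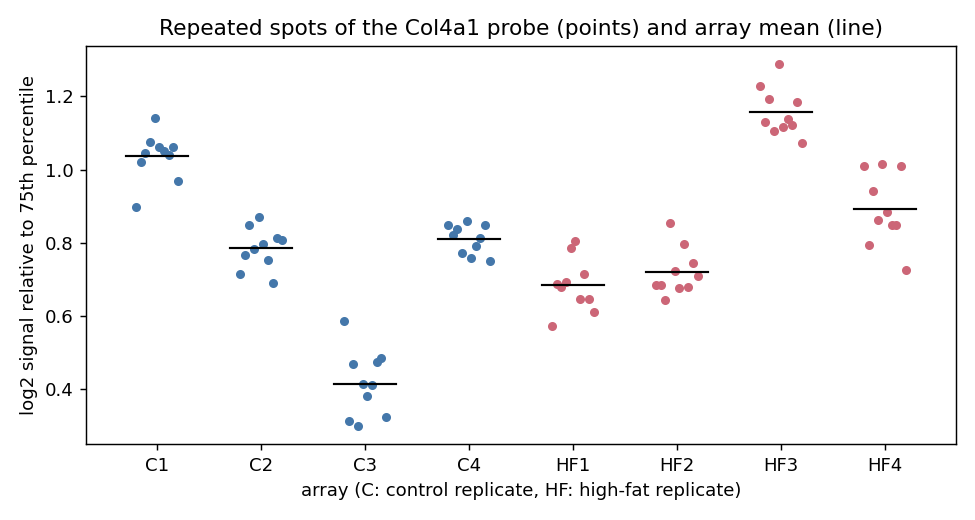
Log2 level of the 10 repeated spots of the Col4a1 probe on each array (y axis: log2 signal relative to the array's 75th percentile; x axis: control C1 to C4 and high-fat HF1 to HF4); points are spots and lines are array means. Spots of 1 array lie close together, while array means run from 0.42 on C3 to 1.16 on HF3.

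Col4a2, whose product joins that of Col4a1 in the same trimer, measured 0.51, 0.38, -0.23 and 0.21 in control and 0.37, 0.57, 0.80 and 0.68 in high-fat replicates 1 to 4 (chr8:11448840-11448899). Control replicate 3 was again lowest and high-fat replicate 3 highest, and control replicates 1 and 2 lay among the high-fat arrays. The difference was 0.39 ± 0.18 with an adjusted limma p of 0.842, and it was 0.022 on slide 1, 0.75 on slide 2 and 0.24 without control replicate 3. The genes are divergent neighbours: in RefSeq (GRCm38.p6) their starts are 21 bases apart on opposite strands.

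Col4a1 minus Col4a2 ran from 0.40 to 0.64 in control and from 0.15 to 0.35 in high-fat arrays, without overlap. The difference was -0.28 (exact permutation p = 0.0286, adjusted 0.143 over 10 pairs), with -0.23 and -0.34 on the slides. Over the 8 arrays the chains had r = 0.842 and rho = 0.714 (exact permutation p adjusted over 10 pairs 0.0548 and 0.231), and r was 0.316 without the 2 arrays farthest from the median.

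The other type IV chains, which form the specialised networks of kidney, lung and some epithelia, stood near 0. The difference was -0.046 ± 0.20 for Col4a4, 0.021 ± 0.20 for Col4a5 and 0.00025 ± 0.18 for Col4a6. For the 5 type IV chains alone the median was 0.021. The signs of these chains turned between slides: Col4a5 was 0.26 and -0.22, and Col4a6 0.17 and -0.17.

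Col18a1, the source of the fragment endostatin, measured -1.98, -1.62, -1.62 and -1.36 in control and -1.82, -1.11, -1.79 and -1.20 in high-fat replicates 1 to 4 (chr10:76514926-76514985). The diets overlapped, and the difference was 0.17 ± 0.21 on this probe and 0.055 ± 0.18 on a second. On this probe it was 0.043 without high-fat replicate 2 and 0.28 without high-fat replicate 1. Col15a1 measured -4.41, -5.67, -5.64 and -4.95 in control and -4.31, -4.96, -5.39 and -5.57 in high-fat replicates on the glycine repeat probe printed above. These levels are close to background, and the difference was 0.11 ± 0.36. Its 2 probes at chr4:47325261-47325320 and chr4:47325273-47325332 were well above background on 0 arrays.

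Among the FACITs other than Col16a1, Col9a2 stood at -0.27 ± 0.16, Col20a1 at -0.041 ± 0.28, Col9a1 at 0.14 ± 0.41 and Col19a1 at 0.014 ± 0.30. Col14a1, undulin, gave the widest error of all 29 genes. Its repeat probe, printed above, measured -1.62, -1.83, -0.06 and -1.94 in control and -0.36, -0.58, -2.66 and -2.68 in high-fat replicates 1 to 4. High-fat arrays of slide 1 were high and those of slide 2 low, and control replicate 3 was the highest array. The difference was -0.21 ± 0.67, with 1.25 on slide 1 and -1.67 on slide 2. The other Col14a1 probe (chr15:55352264-55352323) kept to -3.39 to -2.29 and gave 0.0018 ± 0.26, so the probes of this gene disagree.

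Col7a1, the collagen of anchoring fibrils under epithelia, showed the same turn between slides, with 1.27 and -0.51 and a difference of 0.38 ± 0.56. Its highest arrays were high-fat replicate 1 at 1.58 and control replicate 3 at 0.74. The summed signal of all 10 acinar markers was also highest on these arrays, at 4462 and 4153, within ranges of 2084 to 4153 in control and 2499 to 4462 in high-fat arrays. The part of acinar RNA in the Col7a1 and Col14a1 values was not tested.

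The transmembrane collagens gave 0.38 ± 0.43 for Col23a1, 0.17 ± 0.36 for Col13a1 and 0.15 ± 0.25 for Col25a1. The short chain Col8a2 gave -0.21 ± 0.41. Col23a1 followed the slide: its levels were -4.50 to -3.86 on the 4 arrays of slide 1 and -3.63 to -2.76 on those of slide 2. With the slide as a block its SE became 0.18 and its adjusted limma p 0.685. With that block limma called 0 collagens.

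Before a collagen is secreted its chains are hydroxylated, folded by chaperones, trimmed and cross-linked, and 27 of 31 listed genes for these steps were tested. None passed at an adjusted p under 0.05. At an unadjusted p under 0.05 there were 4 of 27 higher and 0 lower, against 2.59% higher and 3.27% lower of all genes. In the list 21 of 27 stood above 0, and the median was 0.22, against 0.00093 for all genes. On the slides the median was 0.20 and 0.26, and it was 0.083 in the deposited value table. The 4 were the prolyl 3-hydroxylase Leprel1 (now P3h2) at 0.83 ± 0.28, P4hb at 0.44 ± 0.17, the cross-linking oxidase Loxl2 at 0.40 ± 0.15 and the procollagen C-proteinase Bmp1 at 0.26 ± 0.11. P4hb is the beta subunit of prolyl 4-hydroxylase and also a general disulfide isomerase of the endoplasmic reticulum. Their adjusted limma p-values were 0.732, 0.804, 0.804 and 0.842 in that order. With normexp P4hb was 0.014, and in the deposited value table Leprel1 was 0.18.

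Leprel1 measured -3.58, -3.14, -3.75 and -3.04 in control and -3.31, -2.23, -2.36 and -2.29 in high-fat replicates 1 to 4. High-fat replicates 2 to 4 were above all controls, and replicate 1 was among them. Ctage5, a co-receptor for procollagen export, stood at 0.21 ± 0.095 without overlap, 1 of 27 members where 1.78% of all genes lay above in this way. Serpinh1, a chaperone dedicated to collagens, stood at 0.23 ± 0.18. The cross-linking oxidase Lox was not well above background on at least 4 arrays.

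Laminins and other partners of type IV collagen in the basement membrane were tested for 14 of 15 listed genes, with a median of 0.15 and 11 above 0. None passed at an adjusted p under 0.05 in limma. The laminin chain Lama5 stood at 0.38 ± 0.12, with an adjusted limma p of 0.712. Lamc1 stood at 0.21 ± 0.11 and Lamb3 at 0.91 ± 0.48. Lamb3 was 1.55 on slide 1 and 0.26 on slide 2, 0.51 without control replicate 1 and 0.17 in the deposited value table.

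Receptors that bind collagen were tested for 8 of 11 genes, with a median of 0.017, 5 above 0 and none at an unadjusted p under 0.05 in either direction. The smallest p-values belonged to Gpr56 (now Adgrg1), a receptor for type III collagen known in beta cells, at 0.15 ± 0.10, and to the discoidin receptor Ddr1 at -0.16 ± 0.13. Lair1, an inhibitory collagen receptor of leukocytes, stood at -0.17 ± 0.21, and the integrin chain Itga11 at 0.27 ± 0.49. Without control replicate 3 Lair1 was -0.023 and Itga11 0.76, and without control replicate 1 Itga11 was 0.0051. Enzymes and inhibitors of collagen turnover were tested for 9 of 13 genes, with a median of -0.054, 3 above 0 and none at that p. The sign of that median did not hold: it was 0.019 with median scaling, 0.018 with quantile normalization, 0.053 on slide 2 and 0.11 without high-fat replicate 2. Cathepsin K (Ctsk) stood at 0.42 ± 0.20, the membrane collagenase Mmp14 at -0.53 ± 0.39, the inhibitor Timp3 at 0.20 ± 0.15 and the gelatinase Mmp2 at -0.37 ± 0.34, or -0.090 without control replicate 4. The Mmp14 probe was well above background on only 3 control and 2 high-fat arrays, so its levels are close to background. The collagenases Mmp8 and Mmp13 were not well above background on at least 4 arrays.

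The listed cell types were followed by their marker sums on the same scale. Such a sum adds linear signals of different probes, so the brightest probes of a list weigh most. For macrophages and leukocytes, with all 11 listed genes on the array tested, the sum was 24.4 to 30.3 in control and 19.8 to 24.0 in high-fat arrays, without overlap, and 10 of 11 genes stood below 0. None of the 11 was at an unadjusted p under 0.05 in limma, and 0 were without overlap on their own. For the 9 other endocrine markers it was 570 to 622 and 522 to 543, also without overlap. Of these 9 genes, 7 stood below 0 and 2 above. At an unadjusted p under 0.05 in limma 5 were lower and 0 higher, against 3.27% and 2.59% of all genes. High-fat arrays lay below all controls for 4 of the 9, against 1.67% of all genes. At an adjusted p under 0.05 limma called 0 of them. The sums of beta (801 to 1145 and 878 to 1167), duct (5.68 to 8.82 and 7.56 to 9.95), endothelial (36.2 to 48.7 and 38.4 to 49.5) and Schwann cell markers (3.42 to 6.20 and 2.24 to 3.99) overlapped. Within the stromal list, the proteoglycan decorin (Dcn), which binds collagen fibrils, stood at -1.09 ± 0.57, the pericyte marker Rgs5 at 0.44 ± 0.20, and Cspg4 and Des at 0.23 ± 0.13 and -0.20 ± 0.16. The part of these cell types in the collagen differences was not tested.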

How the data were processed

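The scanner files were deposited by the authors as intensity values per spot, made by Feature Extraction 11.5.1.1 per the file headers. The deposited value table holds log2 values, and the labels name limma for it without parameters. It served as an alternative only. Here log2 of the processed signal minus the array's 75th percentile was used, outlier spots (125 to 228 per array) were left out and spots of a probe averaged. A probe was kept where 4 or more of the 8 arrays had it well above background (26076 probes). Each gene was read from its probe of highest mean (19993 genes, median SE 0.171). The diets were compared with limma 3.58.1 in R 4.3.3 (lmFit, eBayes) with Benjamini-Hochberg adjustment over all genes. The number of arrays limits the precision.

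The collagens and all lists were chosen with earlier results of these data known. Named genes were collagens at an unadjusted p under 0.05, Col16a1, a set of 10 common collagens, and up to 4 partner or marker genes per list by smallest p, of which 1 is not reported here. Other names, the 10 pairs of chains, their correlations and the codon run were chosen after values were seen. The fit was tested on simulated data for the diet comparison over 19993 genes: it called 49 of 100 genes changed by 1 and 81 of 100 changed by 2 on the log2 scale, with 5 false calls. The changed genes were drawn from all genes, and the noise was independent, without slide effects. The median SE was 0.28 for the 29 collagens against 0.17 for all genes, so these rates are not those of the collagens. Alternatives were normexp (offset 50) with and without spots above 4 times the median background, median scaling, quantile normalization, the deposited table, no filter or a stricter one on dim probes, averaging the probes per gene, a robust trended eBayes, blocks for slide or replicate number, single slides, and single samples left out. Sequences were read from the scanner files with Python 3.11.15 and pandas 2.3.3, and figures drawn with matplotlib 3.10.9. An annotation on mm9 was not used here, so exons are not given.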

Additional observations from a re-analysis of the deposited data

Results flagged for a closer look

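Among 66 groups of 4 arrays checked for an array that stands apart from the other 3, 3 were found (4.55%), where chance gives about 1 in 20. For Col14a1, control replicate 3 measured -0.059 against -1.94 to -1.62 on the other controls, on the glycine repeat probe. For Col4a5, the same array measured -3.56 against -4.36 to -4.28. For Col5a3, control replicate 1 measured -2.97 against -3.65 to -3.54.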

How the results depend on the processing

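No alternative called a collagen at an adjusted p under 0.05. Col16a1 ran from 0.34 to 0.73 over 21 alternatives, with adjusted limma p from 0.199 to 0.882. The labels do not say that the replicate numbers pair the samples. Same-numbered samples share a slide and lie at neighbouring positions on it. They correlated at 0.21, 0.40, -0.0041 and 0.30 in their deviations from the diet means, and 3 of 4 correlated best with their own number. Pairing cannot be told apart here from slide and position. With the replicate number as a block the adjusted limma p of Col16a1 was 0.445, with 0 collagens called and 3 at an unadjusted p under 0.05. The share of all genes at that p with this block is not given here.

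With normexp, which shifted the median of all genes to 0.128, Col26a1 was 0.30, Col4a1 -0.047, Bmp1 -0.15, Gpr56 -0.32, Lair1 0.33, Mmp14 0.59, Timp3 -0.18 and Mmp2 0.54, with signs turned. The medians then were 0.52 for all collagens, 0.53 for basement membrane, 0.51 for other collagens, 0.30 for receptors and 0.56 for turnover. With normexp 1 collagen was at an unadjusted limma p under 0.05, against 0.74% of all genes. Without overlap there was 1 collagen, against 1.62% of all genes. The cause of these shifts was not tested. Collagens without overlap were also 1 with normexp without spots of high local background, where 2.20% of all genes did not overlap. The count was 1 as well with median scaling, quantile normalization and the deposited table. Quantile normalization gave 5 collagens at an unadjusted limma p under 0.05. The shares of all genes with median scaling, quantile normalization and the deposited table are not given here, so these counts are not read against them. The deposited table gave a processing median of 0.083. With no filter on dim probes the median was -0.0070 for all collagens, -0.11 for fibrillar and -0.0079 for other collagens.

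On slide 1 alone Col1a2 was -0.044, Col4a1 -0.21, Ddr1 0.0067 and the receptor median -0.074. On slide 2 alone Col15a1 was -0.19, Col18a1 -0.0013, Itga11 -0.68 and the receptor median 0.12. Each slide gave 12 collagens without overlap, where 2 arrays a diet leave 40.4% and 39.1% of all genes without overlap.

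Leaving out 1 sample in turn, the range was -0.14 to 0.36 for Col15a1, -0.32 to 0.64 for Col1a1, -0.19 to 0.21 for Col1a2, -0.024 to 0.64 for Col3a1 and -0.013 to 0.19 for Col4a1. The median ran from -0.057 to 0.14 for basement membrane collagens from -0.065 to 0.053 for receptors and from -0.15 to 0.11 for turnover. Collagens at an unadjusted p under 0.05 ran from 3 to 5 (5 without control replicate 1 and without high-fat replicate 1). The shares of all genes at that p in these fits are not given here. Those without overlap ran from 2 to 5, with 5 without high-fat replicate 1, when 11.8% of all genes had none.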
